A study of Mus musculus with 6 samples.

Results

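The nuclear-encoded subunits of the mitochondrial respiratory chain and ATP synthase were examined in livers of male mice aged 6 to 8 weeks, 3 of them controls labelled wild type and 3 Dhx32-/- homozygous mutants. Dhx32 codes for a DEAH-box protein related to RNA helicases. Snap-frozen liver was measured on exon arrays, which carry several probe sets per gene, 1 array per sample. How the allele was made and the genetic background are not given in the sources used here. Nor do the labels state that the samples came from separate animals, so each p-value measures only the spread between these 6 arrays.

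Genes were taken by name from the platform's probe annotation: those symbols starting with Ndufa, Ndufb, Ndufc, Ndufs, Ndufv, Uqcr, Cox4, Cox5, Cox6, Cox7, Cox8 or Atp5, together with Sdha to Sdhd and Cyc1. This gave 76 of 16117 genes and 510 of 185264 probe sets that name a single gene. Of the genes, 32 belonged to complex I, 4 to complex II, 8 to complex III, 13 to complex IV and 13 to ATP synthase. Ndufa4 was counted with complex I by its name, although its product is now assigned to complex IV. The name rule also took in 3 assembly factors of complex I and 3 products that are not subunits. Subunits named only together with another gene, and the 13 subunits encoded by mitochondrial DNA, were not analysed here.

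The respiratory chain lies in the inner mitochondrial membrane. Complex I takes electrons from NADH and complex II from succinate, both pass them to coenzyme Q, and complex III hands them through cytochrome c to complex IV, which reduces oxygen. The proton gradient that complexes I, III and IV build drives ATP synthase, and in hepatocytes this supply of ATP supports gluconeogenesis, urea synthesis and lipid metabolism. Most subunits are encoded in the nucleus, and promoters of many of them carry sites for the transcription factors NRF1 and GABPA.

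The promoters of 5 genes whose values are described at length are shown first, because the members share these regulatory motifs to an unequal degree. Each is the 250 bases before the gene's start in RefSeq annotation of build GRCm38.p6, on the gene's own strand, 5′ to 3′. Capitals mark matches on either strand to CGCNTGCG (the core of the NRF1 motif), CCGGAAG (the ETS motif that GABPA binds), GGGCGG (SP1) and CCAAT. The windows are chr5:115348959-115349208 (minus strand) for Cox6a1, chr7:97399753-97400002 (plus strand) for Ndufc2, chr13:73328483-73328732 (minus strand) for Ndufs6, chr9:79759854-79760103 (minus strand) for Cox7a2 and chr19:7217617-7217866 (minus strand) for Cox8a.
Cox6a1: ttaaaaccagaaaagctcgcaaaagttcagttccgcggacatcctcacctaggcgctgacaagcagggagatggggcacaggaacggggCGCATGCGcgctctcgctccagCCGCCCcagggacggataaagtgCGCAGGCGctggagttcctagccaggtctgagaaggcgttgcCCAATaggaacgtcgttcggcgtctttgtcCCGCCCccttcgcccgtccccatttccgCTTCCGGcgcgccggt
Ndufc2: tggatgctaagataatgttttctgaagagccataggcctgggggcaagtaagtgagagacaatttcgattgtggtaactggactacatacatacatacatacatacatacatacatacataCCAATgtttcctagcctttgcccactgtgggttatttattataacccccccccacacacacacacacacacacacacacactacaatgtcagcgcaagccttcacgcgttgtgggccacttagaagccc
Ndufs6: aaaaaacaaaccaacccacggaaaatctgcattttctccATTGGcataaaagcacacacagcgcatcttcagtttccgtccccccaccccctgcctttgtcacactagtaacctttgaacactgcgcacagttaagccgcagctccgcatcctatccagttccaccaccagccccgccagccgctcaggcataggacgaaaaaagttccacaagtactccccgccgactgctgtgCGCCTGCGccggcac
Cox7a2: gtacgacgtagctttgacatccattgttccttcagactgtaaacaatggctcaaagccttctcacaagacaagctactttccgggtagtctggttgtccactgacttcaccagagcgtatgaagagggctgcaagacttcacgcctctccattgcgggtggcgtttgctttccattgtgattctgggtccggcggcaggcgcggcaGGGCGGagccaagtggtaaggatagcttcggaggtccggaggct
Cox8a: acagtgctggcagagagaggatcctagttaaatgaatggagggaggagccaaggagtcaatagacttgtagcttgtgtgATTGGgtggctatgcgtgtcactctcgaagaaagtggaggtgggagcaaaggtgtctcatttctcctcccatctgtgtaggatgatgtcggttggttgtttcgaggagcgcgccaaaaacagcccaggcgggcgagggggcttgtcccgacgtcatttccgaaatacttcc

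Cox6a1 had matches to all 4 motifs, and Ndufs6 had the NRF1 core near its start and CCAAT. Cox7a2 had only the SP1 letters, while Ndufc2 and Cox8a had only CCAAT. Promoter sequence was matched for 62 of the 76 genes. CGCNTGCG stood in the promoters of 17 of them (27.4%), against 7.65% of 27025 genes, and its palindromic form CGCATGCG, which those 17 include, in 6 (9.68%) against 1.75%. CCGGAAG stood in 11 (17.7%) against 7.83%. The other motifs searched were near the share of all genes: GGGCGG in 38.7% against 35.4%, CCAAT in 43.5% against 37.5%, CACGTG in 8.06% against 6.86% and AAGGTCA, which nuclear receptors such as ERRalpha bind, in 4.84% against 4.70%. These are matches of letters in a fixed window and were not tested as binding sites.

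Signals were on a log2 scale, with array medians from 6.73 to 6.95. Dhx32 itself was 8.28, 8.85 and 8.62 in controls and 6.35, 6.60 and 7.04 in mutants, so the groups did not overlap and followed the labels (difference −1.92, SE 0.23, n = 3 per group). That difference did not pass the test across all genes (limma with Benjamini-Hochberg adjustment, adjusted p = 0.183). Mutant 1 stood apart from the other arrays, with correlations of 0.935 to 0.940 against a highest value of 0.973, which was that between control 1 and mutant 2. Of 12 hepatocyte markers 8 were measured and had a median difference of −0.02, with albumin (Alb) between 13.64 and 14.05 on every array. In mutant 1 these markers were on average −0.17 from the control mean. Mutant 1 was the lowest of the 6 arrays in 4 of 8 genes (50.0%, against 32.8% of all genes). Alb (13.64) and the tryptophan-degrading enzyme Tdo2 (12.19) were among them. Hnf4a was highest in mutant 1, at 11.75 against a control mean of 11.27, and Apoa1, Serpina1a and Tat were also above their control means there. Stellate cell markers (11 of 12 measured) were on average −0.47 from the control mean in mutant 1, but their median there was −0.14. Mutant 1 was the lowest array in 4 of the 11 and the highest in 3 (Des, Col1a1 and Hand2). The low average came mainly from Lrat, Reln and the matrix proteoglycan Dcn, which was 9.97 in mutant 1, against 11.14 to 11.78 on the other arrays. Neutrophil markers (9 of 12 measured) were on average 0.82 above the control mean in mutant 1, and between −0.13 and 0.15 on the other arrays. Mutant 1 was the highest array in 7 of the 9, but Camp was 5.34 there against a control mean of 5.69. Kupffer cell and macrophage markers (12 of 12) were on average 0.45 above the control mean in mutant 1 and between −0.30 and 0.17 elsewhere. Mutant 1 was the highest array in 8 of the 12, beside 3098 of 15045 genes. Adgre1, Vsig4 and Csf1r were not above their control means there, and Mrc1 was lowest there, at 8.24 against a control mean of 9.11. In whole liver, fewer cells of a type and less RNA per cell cannot be told apart.

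No respiratory chain gene passed the test between mutants and controls. Of the 76 genes, 72 had at least 2 probe sets above the signal minimum of 3 and were tested, and 0 of them were called at an adjusted p under 0.05, where 1 of 15045 genes was (0.00665%). The adjusted p of every member was 0.943 or more. At an unadjusted p under 0.05, 0 members were higher in mutants against 2.01% of all genes, and 1 (1.39%), Ndufc2, was lower against 2.20%. Groups that did not overlap gave a like picture: 0 members had every mutant above every control, against 5.15% of all genes, and 2 members (2.78%), Sdha and Ndufv1, had every mutant below every control, against 4.32%. Each of these shares was at or below the background of the array. For the alternatives that follow, all genes were counted in both directions together, which gives no background share for 1 direction. Without mutant 3, 7 of 73 members were lower and 1 higher at that p, beside 1356 of 15065 genes in either direction. Without control 1, 3 were lower and 0 higher (968 of 15053 genes), and without control 2, 0 and 0 (323 of 15053). Without mutant 1, 1 was lower and 2 higher (627 of 15040 genes). With array weights 5 were lower and 1 higher (1217 of 15045 genes), and with the replicate block 3 were lower and 0 higher (893 of 15045).

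Member genes lay slightly lower in the mutants as a group. The median difference was −0.08, from −0.72 to 0.26, beside −0.01 over all genes, and 44 of 72 members (61.1%) had a lower mutant mean against 52.5% of all genes. Array by array, the median member was 0.05, −0.01 and −0.09 relative to the control mean in the controls and −0.20, −0.05 and 0.05 in the mutants. Only mutant 1 lay outside the range of the controls on the low side, and mutant 3 was level with control 1. Without mutant 1 the median difference was 0.01 and 34 of 72 members were lower.

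**Figure D1:**
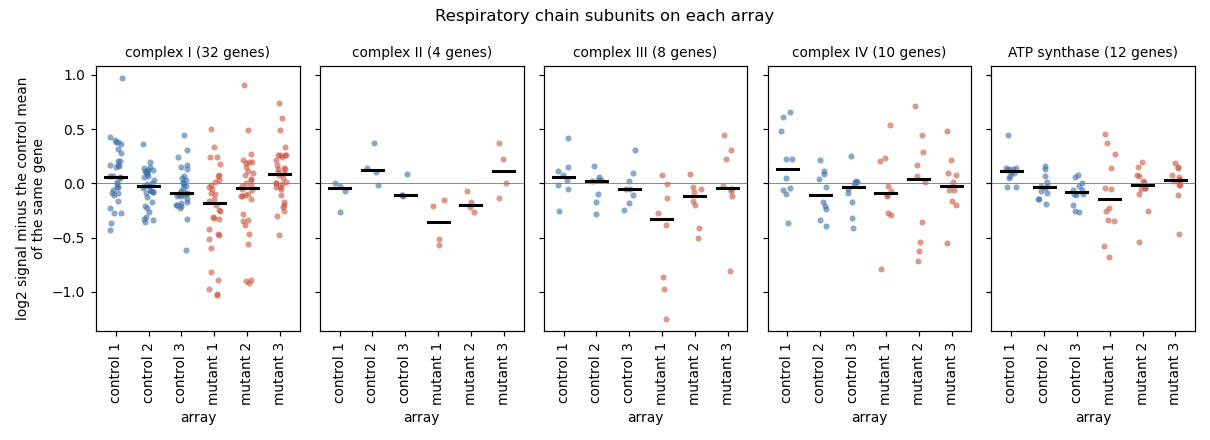
Log2 signal of each subunit gene minus the control mean of the same gene, by array, for the 5 complexes; points are genes, black bars the median, blue controls and red mutants. The median of complexes I, II, III and of ATP synthase was lowest in mutant 1 (−0.18, −0.36, −0.33 and −0.14), whereas for complex IV control 2 was lowest (−0.10).

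Among the 32 genes of complex I, the NADH dehydrogenase, 19 were lower and 13 higher in the mutants, with a median difference of −0.05. Without mutant 1 the count was 13 lower and the median 0.03, without control 1 it was 15 and 0.02, and without mutant 3 it was 22 and −0.13. Ndufa4, the gene now assigned to complex IV, differed by −0.23 (SE 0.19). The core subunits of complex I, which carry the flavin and the iron-sulfur clusters, divided evenly, with 3 lower and 3 higher of 6 measured. Ndufv1, which binds NADH and flavin mononucleotide, had signals of 10.45, 10.65 and 10.51 in controls and 10.44, 10.19 and 10.43 in mutants. Its groups did not overlap, but mutant 1 lay only just below control 1, and the difference was −0.18 (SE 0.15). Ndufs1, the largest core subunit, differed by −0.26 and Ndufs8, an iron-sulfur subunit, by 0.22.

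Ndufc2, an accessory subunit of the membrane arm encoded on chromosome 7, had the largest difference of the tested members. Its signals were 8.20, 8.92 and 8.56 in controls and 7.59, 7.67 and 8.26 in mutants. Mutants 1 and 2 were below every control, while mutant 3 was above control 1. The difference of −0.72 (SE 0.25) corresponds to 1.65-fold and had an adjusted p of 0.943 (limma). It was −0.59 without mutant 1. Other accessory subunits with lower mutant means were Ndufb10 (−0.54, SE 0.28), Ndufb3 (−0.44, SE 0.39), Ndufs5 (−0.41, SE 0.28) and Ndufa6 (−0.41, SE 0.24). In the opposite direction stood Ndufa3 (0.25, SE 0.20), Ndufa1 (0.23, SE 0.25) and Ndufa2 (0.22, SE 0.17). Leaving out 1 array moved Ndufb10 between −0.79 and −0.30, Ndufb3 between −0.96 and −0.14, Ndufs5 between −0.61 and −0.09 and Ndufa6 between −0.54 and −0.20. The lowest of these for Ndufb3 was without mutant 3, and Ndufb3 shows the scatter within the mutants, at 6.14, 6.27 and 7.77 against 7.22, 7.23 and 7.06 in controls.

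Complex II, succinate dehydrogenase, also belongs to the tricarboxylic acid cycle and had a median difference of −0.16 over 4 genes, which was −0.06 without mutant 1 and −0.29 without mutant 3. Sdha, the flavoprotein that oxidises succinate, had signals of 11.96, 12.12 and 11.87 in controls and 11.42, 11.81 and 11.85 in mutants. Every mutant was below every control, although mutant 3 lay only just below control 3, and the difference was −0.29 (SE 0.17, adjusted p at least 0.943 as for all members). It was −0.15 without mutant 1. All 16 kept probe sets of Sdha had a lower mutant mean, as had 53.4% of all probe sets. In 6 of the 16 every mutant was below every control, as in 4.42% of all probe sets. The 16 were read from the same 6 arrays and are not independent, and mutant 1 was the lowest array in 14 of them. Sdhb, the iron-sulfur subunit, differed by −0.26 (SE 0.17), with mutant 3 at 10.21 inside the control range. The membrane anchors Sdhc and Sdhd differed by 0.05 (SE 0.18) and −0.07 (SE 0.21).

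Of 8 genes of complex III, the cytochrome bc1 complex, 6 were lower in the mutants, with a median of −0.16, and 6 without mutant 1, with a median of −0.09. Uqcrb, a small subunit near the quinone site, had signals of 11.34, 10.76 and 10.68 in controls and 9.68, 10.89 and 10.12 in mutants. Mutants 1 and 3 were below the controls and mutant 2 lay among them, with a difference of −0.70 (SE 0.32). The hinge protein gene Uqcrh differed by −0.41 (SE 0.25) and Uqcrfs1, the Rieske iron-sulfur protein, by −0.38 (SE 0.28). Without mutant 1 these 2 differences were −0.13 and −0.14. Cyc1, the cytochrome c1 gene that takes the electrons from the Rieske protein, was 10.51, 10.59 and 10.58 in controls and 10.29, 10.65 and 10.44 in mutants, a difference of −0.10 (SE 0.15). The core proteins Uqcrc1 and Uqcrc2 differed by 0.07 and −0.17 (SE 0.16 for each).

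Complex IV, cytochrome c oxidase, showed no common direction: 5 of its 10 tested genes were lower and 5 higher, with a median of 0.00. Cox5a, a subunit on the matrix side, had the largest difference, −0.49 (SE 0.24), from 9.04, 9.53 and 9.66 in controls to 8.62, 8.78 and 9.34 in mutants. Mutant 3 lay between the controls. Cox6b1, which faces the intermembrane space, differed by 0.26 (SE 0.24). Several subunits have isoforms for different tissues. Of the isoforms typical of striated muscle, Cox8b differed by −0.43 (SE 0.21) and Cox6a2 by −0.05 (SE 0.16), and Cox4i2, known from lung and from hypoxia, by 0.22 (SE 0.20). The signals of Cox8b were low, at 4.44, 4.70 and 4.32 in controls and 4.46, 3.77 and 3.93 in mutants, with mutant 1 inside the control range. Striated muscle markers (13 of 14 measured) were between −0.12 and 0.11 around the control mean on every array. The counterparts found in liver, Cox4i1, Cox6a1 and Cox8a, differed by −0.10 (SE 0.21), −0.16 (SE 0.15) and 0.15 (SE 0.29).

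ATP synthase had a median difference of −0.07, with 8 of 12 tested genes lower. Without mutant 1 the median was 0.03 and 5 were lower, and without control 1 the median was −0.003 and 6 were lower. The catalytic beta subunit Atp5b was nearly flat, at 12.29, 12.12 and 12.07 in controls and 12.10, 12.12 and 12.15 in mutants (difference −0.04, SE 0.14). Its partner, the alpha subunit Atp5a1, differed by −0.08 (SE 0.17). Of the central stalk, the gamma subunit Atp5c1 differed by −0.22 (SE 0.21), the delta subunit Atp5d by 0.17 (SE 0.17) and the epsilon subunit Atp5e by −0.12 (SE 0.19). Atp5c1 was 11.10 in mutant 1 and between 11.71 and 11.91 on the other arrays, and its difference was 0.01 without mutant 1. Atp5o, the oligomycin sensitivity protein that joins head and stator, had the lowest value among the tested genes of the enzyme, −0.27 (SE 0.19). The proton ring genes Atp5g2 and Atp5g3 differed by 0.07 (SE 0.14) and −0.05 (SE 0.22).

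**Figure D2:**
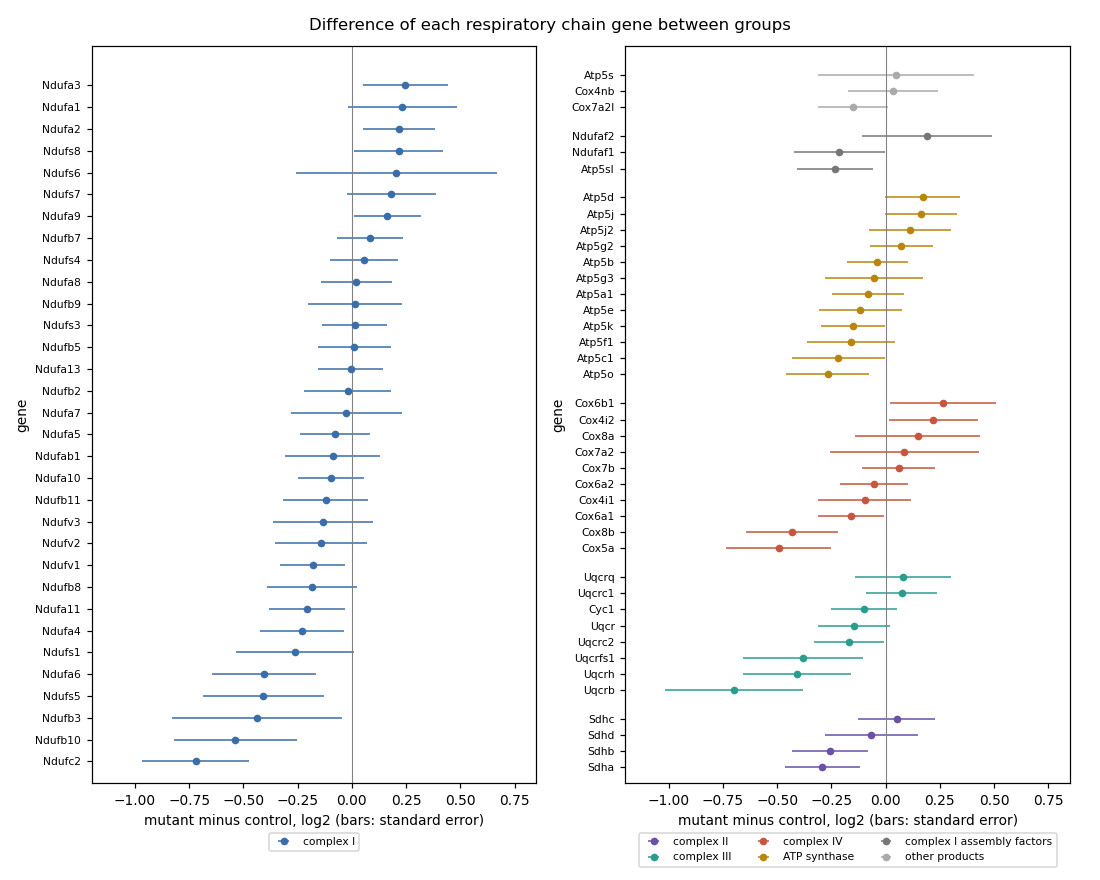
Difference of each of the 72 tested genes, mutant minus control mean on the log2 scale, ordered within each complex; points are estimates from 3 arrays per group and bars the standard error. Ndufc2 (−0.72) and Uqcrb (−0.70) lie farthest to the left, and no gene lies above 0.26.

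Atp5h, Cox6c, Cox7c and Cox7b2 rested on a single kept probe set and were not tested as genes. Cox7c, a small membrane subunit of complex IV, was 10.03, 9.31 and 9.33 in controls and 10.18, 10.22 and 10.06 in mutants, so every mutant was higher and control 1 was close to them. Atp5h, a stator subunit, was 5.54 in mutant 1 and between 6.78 and 7.43 on the other arrays. Cox6c was 10.51 in mutant 1 and between 11.01 and 11.55 elsewhere. Cox7b2, a testis isoform, was at 2.56, 2.75 and 2.06 in controls and 3.09, 3.85 and 3.45 in mutants, so that it passed the signal minimum only through the mutants and had to differ.

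Of the genes that the name rule added, the assembly factors of complex I were Ndufaf1 (−0.21, SE 0.21), Ndufaf2 (0.19, SE 0.30) and Atp5sl, now Dmac2 (−0.23, SE 0.18). Ndufaf2 was 7.30 in mutant 1 and 8.32 and 8.50 in the other mutants, against 8.02, 7.80 and 7.72 in controls. Cox7a2l, which takes part in joining complexes into supercomplexes, differed by −0.15 (SE 0.16). Cox4nb, now Emc8 and part of the membrane insertion machinery of the endoplasmic reticulum, differed by 0.03 (SE 0.21). Atp5s, now Dmac2l, differed by 0.05 (SE 0.36), with 4.94 in mutant 1 and 6.52 in mutant 2.

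Single probe sets gave the widest differences. Of the 510 member probe sets 501 passed the minimum, and 0 were called at an adjusted p under 0.05, as in the whole table (0% of 174710). At an unadjusted p under 0.05, 1 was higher (0.200% against 1.88% of all probe sets) and 13 were lower (2.59% against 2.13%). The higher one was that of Cox7b2, which passed the minimum only through the mutants and had to differ, so it shows no rise. Probe sets whose groups did not overlap numbered 5 higher in mutants (0.998% against 3.98%), Cox7b2 among them, and 27 lower (5.39% against 4.42%). The lower ones were thus near the background share, and the higher ones were fewer than it. In all, 56.3% of member probe sets had a lower mutant mean, against 53.4% of the whole table.

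The smallest p among member probe sets belonged to Cox6a1, the form of subunit VIa found in liver and most other tissues, encoded on chromosome 5. Its probe set 5122735 had signals of 6.78, 8.08 and 7.81 in controls and 5.31, 6.01 and 6.17 in mutants. Every mutant was below every control, and the difference of −1.73 (SE 0.40, 3.32-fold) had an adjusted p of 0.994 (limma). The other 5 probe sets of the gene had higher mutant means, by 0.10 to 0.24. The gap between this probe set and the rest of its gene was −1.89. Its p in the exon usage test, which asks whether any probe set departs from its gene, was 0.000559, the smallest of the members, with an adjusted p of 0.170 (limma diffSplice F test). Adjusted values under 0.05 appeared without control 1 (0.0324) and with the Simes form of the test (0.00721). The position of the probe set within the gene was not analysed here.

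Exon usage was tested in 72 members and 14310 genes. After adjustment 0 members and 30 genes (0.210%) were called. In simulated data of this size, with losses planted in some genes, the same test made 60 false calls, so a call by it is weak evidence of a change. That count depends on the planted losses and gives no rate of false calls among the 30 genes. The Simes form was not simulated. At an unadjusted p under 0.05 there were 3 members (4.17%), Cox6a1, Uqcrb and Ndufb9, against 4.0% of all genes, so members were at the background share. In Uqcrb the departing probe set was 4846326, at 9.71, 7.60 and 7.89 in controls and 4.79, 6.97 and 5.05 in mutants. That difference of −2.80 (SE 0.70, adjusted p = 0.994, limma) was the widest of the member probe sets, and the controls themselves spread over more than the gap between control 2 and mutant 2. Of its other 4 probe sets, 3 differed by −0.05 to 0.03, and 4 of the 5 had a lower mutant mean. Most of the gene's difference of −0.70 thus came from this 1 probe set. The exon usage test of Uqcrb had an adjusted p of 0.671. In Ndufb9, an accessory subunit of complex I, probe set 4887648 was 7.49, 6.13 and 7.61 in controls and 5.09, 6.73 and 4.96 in mutants, and the groups overlapped (exon usage adjusted p = 0.841).

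Ndufc2 had 4 probe sets, all with lower mutant means. Probe set 5199377 was 5.0, 5.70 and 5.48 in controls and 2.94, 3.95 and 4.41 in mutants, without overlap (difference −1.63, SE 0.41). Probe set 5152322 also did not overlap, at 9.14, 9.42 and 9.19 against 8.26, 8.83 and 8.79. The remaining 2 overlapped, with differences of −0.51 and −0.13, so most of the low value of this gene came from a dim probe set. Further probe sets in which every mutant was lower included Sdha 5294989 (−0.83, SE 0.27), Sdhb 5446845 (−0.81, SE 0.28), Atp5sl 5015891 (−0.77, SE 0.25), Ndufb10 4495633 (−0.75, SE 0.27) and Ndufv1 5391670 (−0.72, SE 0.27). Many small subunits have processed pseudogenes, and cross-hybridisation to them was not tested.

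**Figure D3:**
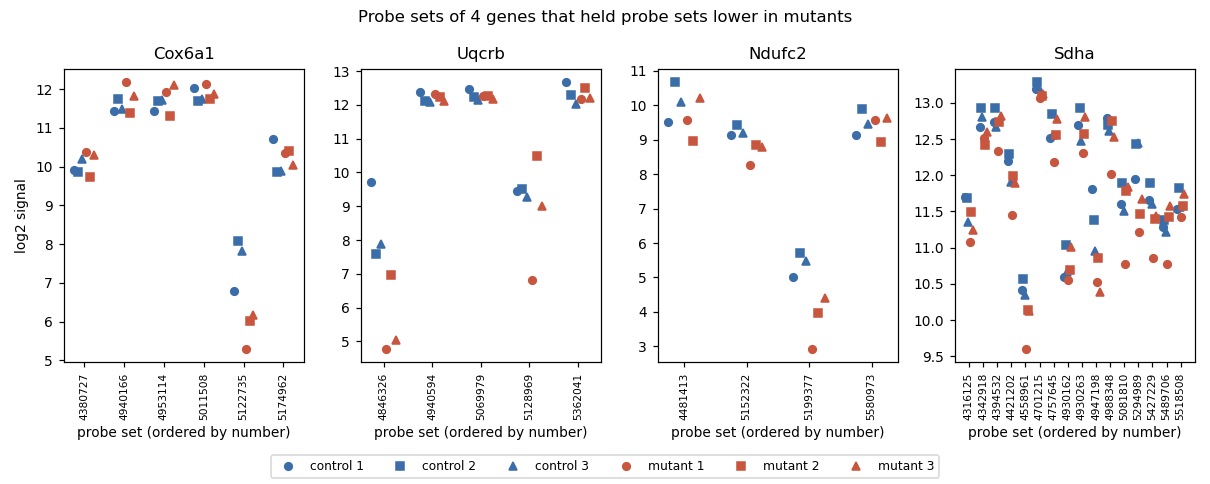
Log2 signal of every kept probe set of Cox6a1, Uqcrb, Ndufc2 and Sdha on the 6 arrays; blue marks are controls, red marks mutants, and shapes the replicate. One probe set of Cox6a1 separates the groups (5.31 to 6.17 against 6.78 to 8.08) while the other 5 do not, whereas all 16 of Sdha have a slightly lower mutant mean.

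Several members varied more between arrays of the same group than between the groups. The genes in this and the next paragraph were chosen after their values were seen. Ndufs6, a zinc-binding accessory subunit of complex I encoded on chromosome 13, was 11.45 in control 1 and 10.12 and 9.86 in the other controls. In the mutants it was 11.39 in mutant 2 and 10.65 and 10.01 in mutants 1 and 3. Control 1 was the highest control in 5 of its 5 probe sets and mutant 2 the highest mutant in 4 of them. Cox7a2, the liver form of subunit VIIa, had the same 2 arrays on top, at 10.45 in control 1 and 10.51 in mutant 2, with the other 4 arrays between 9.45 and 9.63. Each of these arrays led its group in 4 of 5 probe sets. Cox8a, the form of subunit VIII found in liver, was 11.36 in control 1 and 11.19 in mutant 2, and between 10.33 and 10.94 on the others. The mutant minus control differences of Ndufs6, Cox7a2 and Cox8a were 0.20 (SE 0.46), 0.09 (SE 0.35) and 0.15 (SE 0.29).

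Control 1 and mutant 2 were both above the other 4 arrays in 11 of the 72 members (15.3%), and in 7.46% of all genes. Control 1 was the highest of all 6 arrays in 21 members (29.2% against 12.5%). Mutant 1 was the lowest of the 6 in 31 members (43.1% against 32.8%), a share near that of the assembly factors (41.2%). That share was below those of other inner membrane and mitochondrial mass genes (50.0%), the tricarboxylic acid cycle (55.6%) and electron carriers (58.8%). In Ndufs1 mutant 1 was 9.82, against 10.56 to 10.93 on the other arrays, and lowest in 17 of 18 probe sets. The gene's difference of −0.26 (SE 0.27) was 0.05 without mutant 1. Mutant 1 was also the lowest array in 14 of 16 probe sets of Sdha, 12 of 16 of Atp5a1, 8 of 9 of Atp5c1, 9 of 14 of Atp5f1 and 8 of 13 of Uqcrc2. The part in these values of the raised averages of neutrophil and macrophage markers in mutant 1 was not tested.

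**Figure D4:**
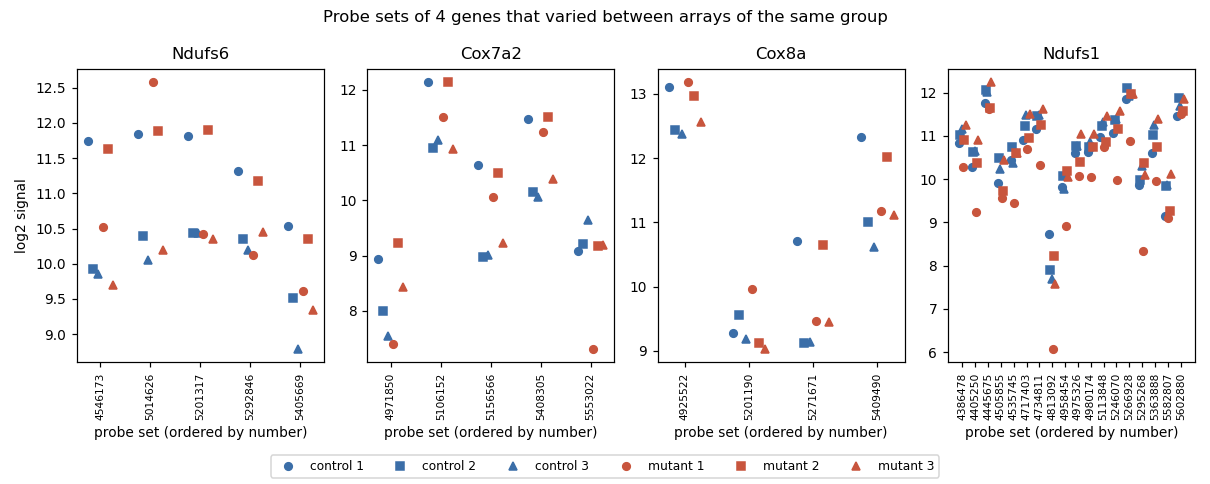
Log2 signal of every kept probe set of Ndufs6, Cox7a2, Cox8a and Ndufs1 on the 6 arrays; blue marks are controls, red marks mutants, and shapes the replicate. Control 1 (blue circle) and mutant 2 (red square) lead most probe sets of Ndufs6 and Cox7a2, and mutant 1 (red circle) is lowest in 17 of 18 of Ndufs1.

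Other genes of mitochondrial energy metabolism were read from lists, and 0 of them were called. Of 42 assembly factors of the complexes 34 were measured, 21 of them lower and 13 higher, with a median difference of −0.06. Without mutant 1 the count was 12 lower and the median 0.07. Among them Cox18, needed to insert a subunit of complex IV, differed by 0.43, Coa7 by 0.34, Timmdc1, an assembly factor of complex I, by −0.32 and Cox11, a copper chaperone, by −0.25. Cox18 and Coa7 had every mutant above every control, 2 of 34 genes beside 5.15% of all genes. In 0 of the 34 was every mutant below every control, beside 4.32% of all genes. Electron carriers and coenzyme Q synthesis had 10 of 17 measured genes lower and a median of −0.02, but 5 lower and a median of 0.14 without mutant 1. In that list Coq8a, a kinase-like protein of coenzyme Q synthesis, had 10.78, 11.14 and 10.88 in controls and 9.87, 10.75 and 10.64 in mutants, without overlap (−0.51, SE 0.25), and −0.24 without mutant 1. The tricarboxylic acid cycle had 15 of 18 measured genes lower and a median of −0.08, with Dld at −0.40, Idh2 at −0.24 and Pcx, pyruvate carboxylase, at 0.38. Without mutant 1 the count of that list was 8 lower, its median 0.01 and Dld −0.06, and without mutant 3 its median was −0.25. The list of other inner membrane and mitochondrial mass genes also holds outer membrane and matrix proteins. It had 14 of 20 lower and a median of −0.10, with the ADP/ATP carrier Slc25a4 and the outer membrane channel Vdac1 both at −0.34. Without mutant 1 these were 9 lower, a median of 0.04, and −0.22 and −0.18 for the 2 genes.

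Regulators of mitochondrial gene expression had 15 of 23 measured genes lower and a median of −0.19, which was −0.06 without mutant 1 (17 lower) and −0.31 without mutant 3 (19 lower). At an unadjusted p under 0.05 there were 1 higher and 2 lower of 23, where 2.01% of all genes were higher and 2.20% lower. The higher one was Tfb1m, a methyltransferase of mitochondrial ribosomal RNA, at 7.50, 7.45 and 7.39 in controls and 7.69, 8.16 and 7.99 in mutants (difference 0.50, SE 0.17, adjusted p = 0.943, limma). The lower ones were the coactivator Ppargc1b (−0.73, SE 0.24) and the deacetylase Sirt1 (−0.54, SE 0.22). Ppargc1a, the coactivator best known for driving mitochondrial biogenesis, was 6.10, 7.51 and 7.59 in controls and 5.07, 6.45 and 6.38 in mutants. The mutants were lower on average by −1.1 (SE 0.48), but control 1 lay below mutants 2 and 3. Pprc1, another coactivator of the list, went the other way and had its largest rise. It was 6.58, 6.26 and 6.57 in controls and 7.85, 6.37 and 6.99 in mutants. That difference of 0.60 (SE 0.34) was 0.21 without mutant 1. Of the factors whose motifs were searched, Nrf1 differed by 0.02 (SE 0.17), Gabpa by −0.34 (SE 0.21) and Esrra by −0.31 (SE 0.17). Tfam, which packages mitochondrial DNA, differed by −0.28 (SE 0.28). Without mutant 1 Gabpa differed by −0.12, Esrra by −0.31, Tfam by 0.07, Sirt1 by −0.31 and Ppargc1a by −0.66.

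Clock genes and markers of fat cells were read beside these values, and none was called. Of 12 clock genes 10 had lower mutant means, and Dbp, a clock output factor, was 7.29, 8.93 and 8.71 in controls and 6.90, 6.91 and 8.74 in mutants, so control 1 lay with mutants 1 and 2. Adipocyte markers were higher in 10 of 12 genes, with averages of 0.14, 0.36 and 0.51 above the control mean in the mutants and from −0.09 to 0.07 in controls. The part of either in the respiratory chain values was not tested.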

How the data were processed

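Per the submitters' processing notes, Affymetrix Expression Console 1.1, RMA, Partek 6.4 and mouse build mm9 were used, and the role of each is not stated. The deposited values of the authors are log2 signals of 204531 probe sets on 6 arrays, whose number limits the precision. Probe sets were named from the platform annotation where it gives 1 symbol, and updated through RefSeq (GRCm38.p6), which also gave chromosomes and promoters. Of the 76 member symbols 71 were current and 5 were matched as older names.

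Probe sets with a mean of at least 3 in either group were kept. A gene's value was the mean of at least 2 kept probe sets. Groups were compared with limma 3.58.1 in R 4.3.3 (lmFit and eBayes over all genes or all probe sets) and exon usage with diffSplice's F test in genes with at least 3 kept probe sets. P-values were Benjamini-Hochberg adjusted over all features, with a threshold of 0.05. The fit was tested on simulated data with 3 arrays per group. The gene test recovered 2.99% of shifts of 0.5 on the log2 scale, 68.7% of 1 and 97.0% of 2, with 11 false calls. The probe set test recovered 1.52% of shifts of 2, with 2 false calls. The exon usage test recovered 1.49% of losses of 1 in a single probe set, 43.3% of 2 and 97.0% of 3, with 60 false calls. Motifs were searched at any listed start of a gene, on both strands.

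The members and lists were chosen with earlier results of these data known. Named genes were those with the smallest p in each direction in each complex, tissue isoforms, products that are not subunits, and genes described after their values were seen. Alternatives were the signal minimum, quantile normalization, median centring, the gene summary, the number of probe sets, a trend, no eBayes, array weights, a replicate block, the Simes test and leaving out each array. Same-numbered arrays of the groups did not deviate together (correlations 0.098, −0.11 and 0.18), so the numbers were not taken as pairs.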

Additional observations from a re-analysis of the deposited data

How the results depend on the processing

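No member was called under the alternatives run at gene level or under those run at probe set level, where the fit without eBayes was not run. The probe set test made almost no calls in simulated data of this size, so its lack of calls says nothing about stability. The gene test recovered 2.99% of simulated shifts of 0.5, so its lack of calls does not show that shifts of that size are absent. The lowest adjusted p over the alternatives run at each level (limma) was 0.531 for the named genes and 0.522 for the named probe sets. The median difference of the members was −0.08 and ranged from −0.11 to 0.01 when 1 array was left out, with 0.01 without mutant 1. It was −0.046 with quantile normalization (0.019 over all genes) and −0.034 with median centring (0.032 over all genes). With the median of probe sets as the gene value it was −0.029 (−0.017 over all genes). With array weights it was −0.014, beside −0.019 over all genes. The replicate block called 0 of all genes and 18 genes for exon usage, and it changed no member's call at the adjusted threshold.

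Over all genes, 1 was called. The count was 0 with no signal minimum, with no eBayes and with the replicate block, and 2 with quantile normalization, with median centring and with array weights. It ranged from 0 to 3 when 1 array was left out, with 3 without control 1, 1 without mutant 2 and 0 without any other array. Over all probe sets, 0 were called, and the count was 2 with a signal minimum of 5, 7 with a trend and 3 with array weights, and from 0 to 5 when 1 array was left out, with 5 without control 1, 3 without mutant 2 and 1 without mutant 1. Exon usage called 30 genes, 130 with the Simes test, and from 13 (without control 2) and 17 (without control 3) to 58 (without mutant 2) when 1 array was left out. Of members it called 0, but 1 (Cox6a1) with the Simes test, and from 0 to 1 when 1 array was left out, Cox6a1 being called without control 1. The causes were not tested.

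Of the genes chosen to be named, some small differences changed sign. Other members, such as Ndufab1 and Ndufv3, also changed sign without mutant 1 and are not listed. With a signal minimum of 5, Atp5s was −0.16. With median centring, Atp5b was 0.0073. With the median of probe sets as the gene value, Atp5k was 0.046, Cox6a1 0.12, Cox7a2l 0.10, Cox7b −0.0091, Atp5s −0.14, Cox4nb −0.086 and Sdhd 0.091. With array weights, Atp5a1 was 0.020, Atp5g3 0.16, Cox6a2 0.0041, Cox4nb −0.13 and Uqcrc1 −0.0067. When 1 array was left out, the differences of these named genes that changed sign ranged as follows in ATP synthase and Atp5s: Atp5a1 −0.16 to 0.052, Atp5b −0.085 to 0.028, Atp5c1 −0.34 to 0.014, Atp5e −0.25 to 0.055, Atp5f1 −0.32 to 0.050, Atp5g3 −0.18 to 0.17, Atp5j2 −0.056 to 0.22 and Atp5s −0.29 to 0.50. In complex IV and Cox4nb they were Cox4i1 −0.26 to 0.12, Cox4nb −0.10 to 0.24, Cox6a2 −0.13 to 0.058, Cox7a2 −0.23 to 0.42, Cox7b −0.025 to 0.17 and Cox8a −0.056 to 0.46. In complex I and Ndufaf2 they were Ndufa1 −0.019 to 0.49, Ndufaf2 −0.039 to 0.56, Ndufb9 −0.15 to 0.23, Ndufs1 −0.50 to 0.051 and Ndufs6 −0.15 to 0.69. In complexes II and III they were Sdhc −0.11 to 0.15, Sdhd −0.21 to 0.12, Uqcrc1 −0.041 to 0.19 and Uqcrq −0.11 to 0.23.

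With 3 arrays per group, differences near the spread between livers could not be called. Signals near the minimum of 3, such as those of Cox7b2, have no clear level above background.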

Other observations

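Besides the 510 probe sets, 20 named a member together with another gene and were left out of every count. All 20 passed the signal minimum, 0 were called, and 1 had an unadjusted p under 0.05 (limma), beside 0 called and 808 of the 16953 other probe sets left out of the single-gene tests.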
